A study of Mus musculus with 10 samples.

Results

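The immediate early AP-1 and stress genes are 10 genes of the deposited gene table, chosen by name: Fos, Fosb, Jun, Junb, Jund, Egr1, Atf3, Ier2, Klf6, and Myc. All 10 were found among the 21939 genes of the table, and all 10 passed the filter of at least 10 estimated counts summed over the libraries, as did 13641 genes in total. They were followed library by library in freshly isolated hepatocytes of 10 adult male mice, 8 to 9 weeks old, with 1 library per mouse. All mice, controls included, had received AAV8Cre, an adeno-associated virus of serotype 8 that carries Cre recombinase under the thyroxine-binding globulin promoter, which is active in hepatocytes. The 3 control mice were C57BL6/j mice without floxed alleles, the 2 Nrf2 KO mice were Nrf2 flox/flox, the 2 p65 KO mice were p65 flox/flox, and the 3 DKO mice were Nrf2:p65 double floxed. The cells were taken 12 days after the injection by perfusion of the liver with Liberase TM, low speed centrifugation, and a Percoll step, so every library was made after isolation, and other cells of the liver could be carried along. The labels give no time from perfusion to lysis and no isolation date, and p-values measure the spread between these mice.

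Immediate early genes are transcribed within minutes of a stimulus such as a growth factor, a cytokine, mechanical stress, or tissue dissociation, because their induction needs no new protein synthesis. Proteins of the Fos and Jun families pair through leucine zippers to form AP-1, a transcription factor that binds AP-1 sites and, with Atf/Creb family partners, cyclic AMP response elements (CRE). In the liver, Fos, Jun, Egr1, Atf3, Ier2, and Myc are known for their rapid induction after partial hepatectomy, and the perfusion used to isolate hepatocytes is known to induce such genes as well.

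The promoters show how the members differ in the elements next to their start sites. The 250 bases upstream of the canonical start site were read from the GRCm39 genome and searched on both strands. Promoters of Fos, Fosb, Jun, Jund, and Ier2 are shown because they include the members that passed a test between genotypes, Fosb and Jund, and the different forms of the CRE. Capitals mark the full CRE TGACGTCA, its core TGACG on either strand, or, in Jun, the variant CRE TGACATCA.
Fos (chr12:85520408-85520657, plus strand): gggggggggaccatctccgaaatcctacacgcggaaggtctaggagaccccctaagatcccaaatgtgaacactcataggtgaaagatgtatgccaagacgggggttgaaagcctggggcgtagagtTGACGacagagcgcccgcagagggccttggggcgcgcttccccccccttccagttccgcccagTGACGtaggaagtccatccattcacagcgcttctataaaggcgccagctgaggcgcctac
Fosb (chr7:19043977-19044226, minus strand): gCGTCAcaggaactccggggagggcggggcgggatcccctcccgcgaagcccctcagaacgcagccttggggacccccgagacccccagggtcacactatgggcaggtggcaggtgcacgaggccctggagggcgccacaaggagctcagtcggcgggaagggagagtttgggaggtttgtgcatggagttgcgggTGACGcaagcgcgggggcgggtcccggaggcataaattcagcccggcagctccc
Jun (chr4:94940460-94940709, minus strand): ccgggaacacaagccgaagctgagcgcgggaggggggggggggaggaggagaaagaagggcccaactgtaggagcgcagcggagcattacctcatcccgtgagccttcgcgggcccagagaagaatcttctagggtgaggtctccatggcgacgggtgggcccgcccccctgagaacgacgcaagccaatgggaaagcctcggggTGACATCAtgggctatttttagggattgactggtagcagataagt
Jund (chr8:71151349-71151598, plus strand): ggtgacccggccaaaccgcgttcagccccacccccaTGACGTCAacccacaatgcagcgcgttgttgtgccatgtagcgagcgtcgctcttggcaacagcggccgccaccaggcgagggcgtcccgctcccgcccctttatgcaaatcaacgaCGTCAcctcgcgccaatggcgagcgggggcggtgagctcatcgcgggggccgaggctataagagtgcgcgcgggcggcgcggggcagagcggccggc
Ier2 (chr8:85389484-85389733, minus strand): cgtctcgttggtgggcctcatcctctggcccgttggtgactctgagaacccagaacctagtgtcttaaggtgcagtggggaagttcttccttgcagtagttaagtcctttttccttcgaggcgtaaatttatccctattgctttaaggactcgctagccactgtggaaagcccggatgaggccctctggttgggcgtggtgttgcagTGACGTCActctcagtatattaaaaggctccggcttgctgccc
The full CRE lay 43 to 36 bases upstream of the start in Ier2 and 214 to 207 bases upstream in Jund, and 1.92% of the promoters of 13630 tested protein-coding genes held it. The core, which also lies within every full CRE, was found in Fos, Fosb, Junb, Jund, Egr1, and Ier2, that is in 6 of the 10 members and in 22.3% of all promoters. The variant CRE was found in Jun, 45 to 38 bases upstream, and in Klf6, and in 1.2% of all promoters. The AP-1 site TGACTCA and the CArG box, the binding motif of serum response factor, were not among the letters of any member in this window, and 3.26% and 1.14% of all promoters held them. A kappa B motif, the letters bound by NF-κB, was found in Fos and Fosb and in 8.28% of all promoters, and the antioxidant response element core TGACNNNGC, the letters bound by Nrf2, in Jund and Klf6 and in 10.6%. These matches are descriptions of the sequence in these windows.

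Across the libraries, total estimated counts ranged from 33707165 to 49897382. The hepatocyte markers took 10.4 to 14.7% of the counts in every library. The 8 cholangiocyte markers summed to 628.5 to 848.9 normalized counts per library, all from 3 genes, with the bile duct keratins Krt19 and Krt7 among those at 0. The 8 neutrophil markers summed to 1.87 to 6.88 in control, 6.92 to 8.08 in Nrf2 KO, 11.3 to 53.8 in p65 KO, and 8.01 to 34.7 in DKO, with 1 called higher in p65 KO and Ly6g, Retnlg, Mpo, and Camp at 0 in all genotypes. According to the paper, RT-qPCR and Western blots of freshly isolated hepatocytes showed that the floxed genes were efficiently deleted. It also reports lower expression of known target genes in the respective knockouts. In the gene totals used here, neither targeted gene was called lower in the libraries labelled as knockouts. Nfe2l2, which encodes Nrf2, was higher in Nrf2 KO than in control (log2 fold change 1.21, SE 0.156, edgeR adjusted p = 0.00488), and Rela, which encodes p65, differed by -0.07 in p65 KO (adjusted p = 0.765). The table holds 1 value per gene, so deleted exons could not be read from it, and the genotypes below are those of the labels.

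All levels below are normalized counts, that is estimated counts divided by the library size after TMM scaling. A gene was called where the edgeR adjusted p over all genes tested did not exceed 0.05 and the log2 fold change was 1 or more, up or down. Per kilobase of the canonical transcript, the most abundant members in control hepatocytes were Egr1 (2569 ± 766.3, SD, n = 3), Ier2 (2157 ± 429.8), Jun (1723 ± 591.2), Fos (1624 ± 1251), and Junb (1617 ± 305.4). Neighbours in this order lay within the larger of their SDs. Jund followed at 991.2 ± 100.9 per kilobase, and Myc (250.8 ± 219.9), Atf3 (162.2 ± 151.2), Fosb (74.5 ± 47.6), and Klf6 (46.9 ± 14) were lower. In DKO hepatocytes Myc stood near Klf6, with 32.8 ± 8.83 against 30.3 ± 8.53 per kilobase.

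**Figure D1:**
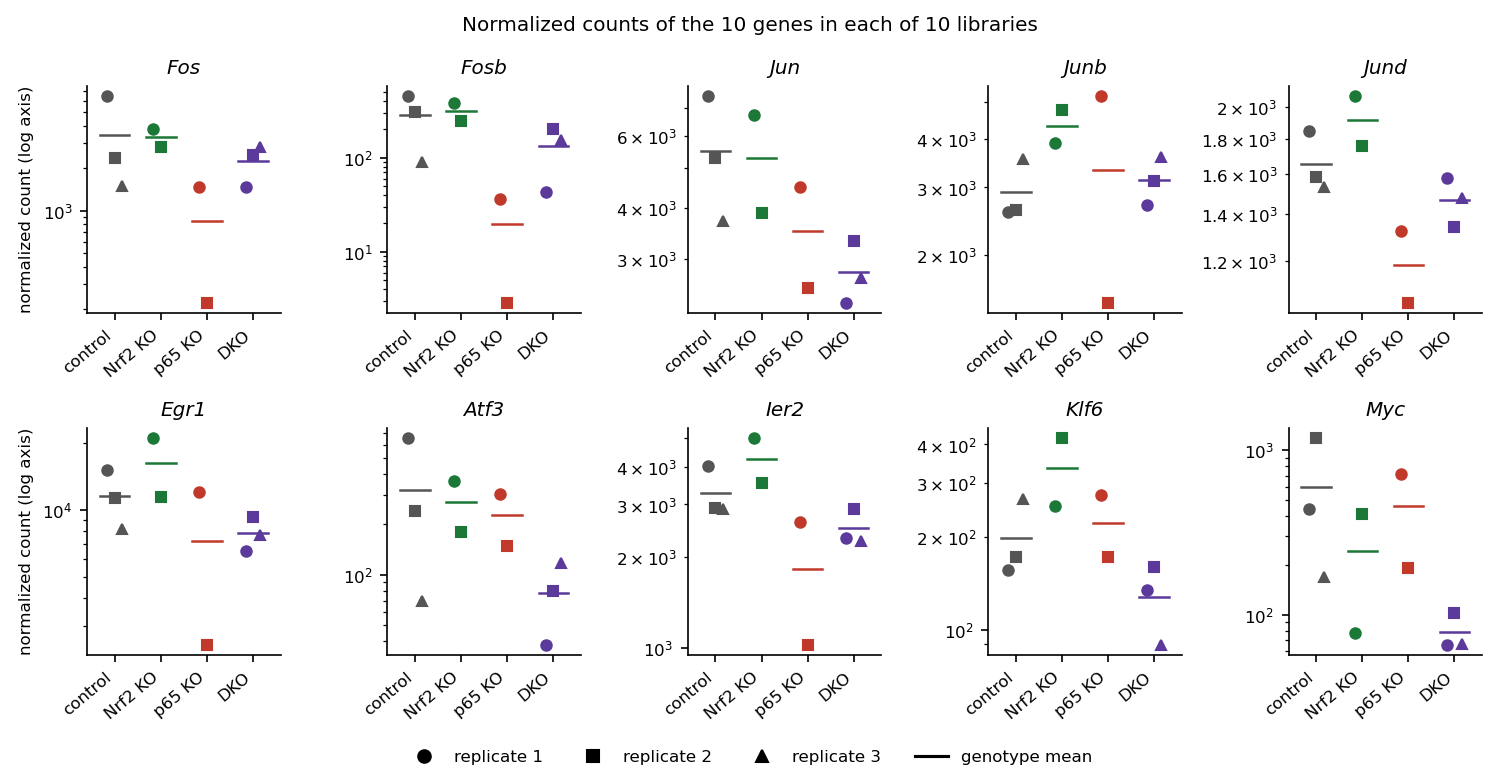
Normalized counts (log axis) of the 10 genes in each of the 10 libraries, by genotype, with 1 symbol per replicate and a line at the genotype mean. Replicate 2 of p65 KO holds the lowest value of Fos, Fosb, Junb, Jund, Egr1, and Ier2, and the 3 DKO libraries lie below every control library for Jun and Myc.

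Fosb was the member that differed most between the genotypes. It encodes a Fos family protein, which needs a Jun partner to bind DNA, and lies at chr7:19036621-19043976 on the minus strand. Its level was 448.3, 305.8, and 90.6 normalized counts in the control libraries 1 to 3, 382.6 and 244.1 in Nrf2 KO, 36.6 and 2.84 in p65 KO, and 43.1, 203.1, and 155.6 in DKO. Both p65 KO libraries were below every other library, and the DKO libraries overlapped with control but not with Nrf2 KO. The mean was 14.4-fold lower in p65 KO than in control (log2 fold change -3.85, SE 0.951, edgeR adjusted p = 0.0237) and 16.1-fold lower than in Nrf2 KO (-4.00, SE 0.986, adjusted p = 0.0304). It was the only member called in either comparison, that is 1 of 10 where 6.59% of all genes were called against control and 5.19% against Nrf2 KO. The difference rested on few libraries. Without control replicate 1 the adjusted p against control was 0.0675, without p65 KO replicate 1 it was 0.0509, and without p65 KO replicate 2, which holds the value of 2.84, it was 0.109 with a log2 fold change of -2.94. Against Nrf2 KO the adjusted p rose to between 0.0527 and 0.124 when any 1 of the 4 libraries compared was left out. DKO stood between p65 KO and control, and the log2 fold change of DKO against p65 KO was 2.78 (SE 0.942, adjusted p = 0.124).

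Fos, the founding member of the family, lies at chr12:85520658-85524047 on the plus strand. It was at 6448, 2350, and 1504 normalized counts in control, 3781 and 2824 in Nrf2 KO, 1469 and 221.2 in p65 KO, and 1464, 2469, and 2803 in DKO. Both p65 KO libraries lay below the lowest control library, in 1 case by a small margin, and DKO overlapped with control and p65 KO. Its mean was 4.07-fold lower in p65 KO than in control, a difference that was not called (log2 fold change -2.02, SE 0.746, edgeR adjusted p = 0.0914). The 3 control mice alone spanned a 4.29-fold range and the 2 p65 KO mice a 6.64-fold range.

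Among the Jun family genes, Jund showed the smallest spread between mice. Jund encodes a Jun protein that is known for its high basal expression in resting cells (chr8:71151599-71153265, plus strand). The control libraries were at 1844, 1583, and 1530 normalized counts, Nrf2 KO at 2071 and 1754, p65 KO at 1325 and 1042, and DKO at 1581, 1342, and 1477. Both p65 KO libraries were below all others, and Nrf2 KO and control overlapped. Jund was 1.4-fold lower in p65 KO than in control (log2 fold change -0.48, SE 0.144, adjusted p = 0.0467) and 1.62-fold lower than in Nrf2 KO (-0.69, SE 0.156, adjusted p = 0.0224), so that both differences passed the adjusted p but not the fold change of the call. At the adjusted p alone, 2 of 10 members, Fosb and Jund, passed in both comparisons, where 14.9% of all genes passed against control and 10.4% against Nrf2 KO. Jund was also the only member that passed the test for any difference among the 4 genotypes (adjusted p = 0.0478), which 13.9% of all genes passed. This call was lost when any 1 of the 10 libraries was left out (adjusted p 0.0547 to 0.145) and with total count scaling (0.0771). It was also lost with DESeq2 size factors, with upper quartile scaling, and with a filter of a mean of 10 counts per library. The difference from control was within a narrow margin of the threshold. Its edgeR adjusted p was 0.0568 with DESeq2 size factors, 0.0607 with upper quartile scaling, and 0.193 with total count scaling. It was 0.0518 with a filter of a mean of 10 counts per library and 0.0747 with only the genotypes compared. Without a filter, with DESeq2, with limma, and with the replicate block it was 0.0271 to 0.0429. Leaving out 1 control library gave 0.0639 to 0.139, and leaving out 1 DKO library 0.0471 to 0.0594. Without p65 KO replicate 2 the log2 fold change was -0.32. Against Nrf2 KO the adjusted p was between 0.0236 and 0.133 when 1 library was left out, and above 0.05 without either Nrf2 KO library or without p65 KO replicate 2 (0.109), and it was 0.0656 with total count scaling.

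Jun, the main partner of Fos in AP-1 (chr4:94937271-94940459, minus strand), was lowest in DKO. Its level was 7474, 5289, and 3720 normalized counts in control, 6718 and 3893 in Nrf2 KO, 4492 and 2559 in p65 KO, and 2349, 3324, and 2710 in DKO. All 3 DKO libraries were below all control and Nrf2 KO libraries, whereas p65 KO overlapped with control and DKO. The mean in DKO was 1.97-fold lower than in control, which was not called (log2 fold change -0.98, SE 0.293, edgeR adjusted p = 0.0814).

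Junb, whose protein is a weaker activator than Jun at many AP-1 sites, was the only member with its lowest mean in control. It was at 2594, 2619, and 3563 normalized counts in control, 3907 and 4770 in Nrf2 KO, 5178 and 1501 in p65 KO, and 2701, 3113, and 3603 in DKO. The highest and the lowest value of all libraries were those of the 2 p65 KO mice, 3.45-fold apart, and the Nrf2 KO libraries were above all control and DKO libraries. Neither the log2 fold change of 0.57 (SE 0.375) in Nrf2 KO nor that of 0.19 (SE 0.378) in p65 KO was called (edgeR adjusted p = 0.733 and 0.768). Junb (chr8:85701113-85705359, minus strand) overlaps Prdx2 on the opposite strand by 1238 bases, and reads that the genes might share were not separated here.

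Atf3, a stress-induced leucine zipper protein that can pair with Jun proteins (chr1:190902493-190950241, minus strand), spanned a 9.33-fold range within control alone. It was at 653.7, 241.9, and 70.0 normalized counts in control, 360.9 and 180.3 in Nrf2 KO, 305.8 and 149.3 in p65 KO, and 37.9, 79.7, and 116.7 in DKO. The DKO libraries were below those of both single knockouts, but control replicate 3 lay within the range of DKO. Its mean was 4.12-fold lower in DKO than in control (log2 fold change -2.04, SE 0.693, edgeR adjusted p = 0.113), which was not called.

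Egr1 and Ier2, a zinc finger transcription factor and a small nuclear protein that are both induced by serum and mitogens, had similar profiles. Egr1 was at 15101, 11325, and 8221 normalized counts in control, 20990 and 11440 in Nrf2 KO, 11984 and 2458 in p65 KO, and 6546, 9300, and 7731 in DKO. Ier2 (chr8:85387960-85389483, minus strand) was at 4044, 2930, and 2890 in control, 4983 and 3532 in Nrf2 KO, 2632 and 1020 in p65 KO, and 2327, 2904, and 2268 in DKO. Both genes were lowest in p65 KO replicate 2 and higher in each Nrf2 KO library than in any DKO library, and Ier2 was lower in both p65 KO libraries than in any control library. Ier2 was 1.8-fold lower in p65 KO than in control (log2 fold change -0.85, SE 0.331, edgeR adjusted p = 0.107) and 2.33-fold lower than in Nrf2 KO (-1.22, SE 0.358, adjusted p = 0.0532). For Egr1 the log2 fold change in p65 KO was -0.68 (SE 0.52, adjusted p = 0.401), and without p65 KO replicate 2 it was 0.05.

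Klf6, a Krüppel-like zinc finger factor induced by injury (chr13:5911481-5920393, plus strand), was highest in Nrf2 KO and lowest in DKO. Its level was 156.8, 172.1, and 266.2 normalized counts in control, 252.1 and 418.7 in Nrf2 KO, 273.3 and 173.0 in p65 KO, and 134.6, 160.5, and 89.3 in DKO. The DKO libraries were below those of both single knockouts, and only control overlapped with them. Klf6 was 2.62-fold lower in DKO than in Nrf2 KO (log2 fold change -1.39, SE 0.326, edgeR adjusted p = 0.109). It had the smallest p of the members in the interaction, which asks whether the effect of Nrf2 loss differed with the p65 genotype (-1.56, SE 0.462, edgeR adjusted p = 0.194). None of the 10 members was called in the interaction by edgeR, where 0.455% of all genes were called, and Klf6 was the only member at an unadjusted p under 0.05 (13.8% of all genes). DESeq2 gave an adjusted p of 0.0521 for Klf6.

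Myc, the growth-related transcription factor of the set (chr15:61857227-61862223, plus strand), was lowest and least variable in DKO. It was at 439.5, 1178, and 169.0 normalized counts in control, 77.1 and 406.6 in Nrf2 KO, 718.3 and 191.9 in p65 KO, and 65.2, 102.1, and 66.4 in DKO. All DKO libraries were below all control and p65 KO libraries, and 1 of the 2 Nrf2 KO libraries, at 77.1, lay within their range. Its mean was 7.64-fold lower in DKO than in control, which missed the call (log2 fold change -2.93, SE 0.793, edgeR adjusted p = 0.0573). DESeq2 gave -2.92 with an adjusted p of 0.0154, and without control replicate 2, which holds the value of 1178, edgeR gave -1.96 with an adjusted p of 0.173.

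**Figure D2:**
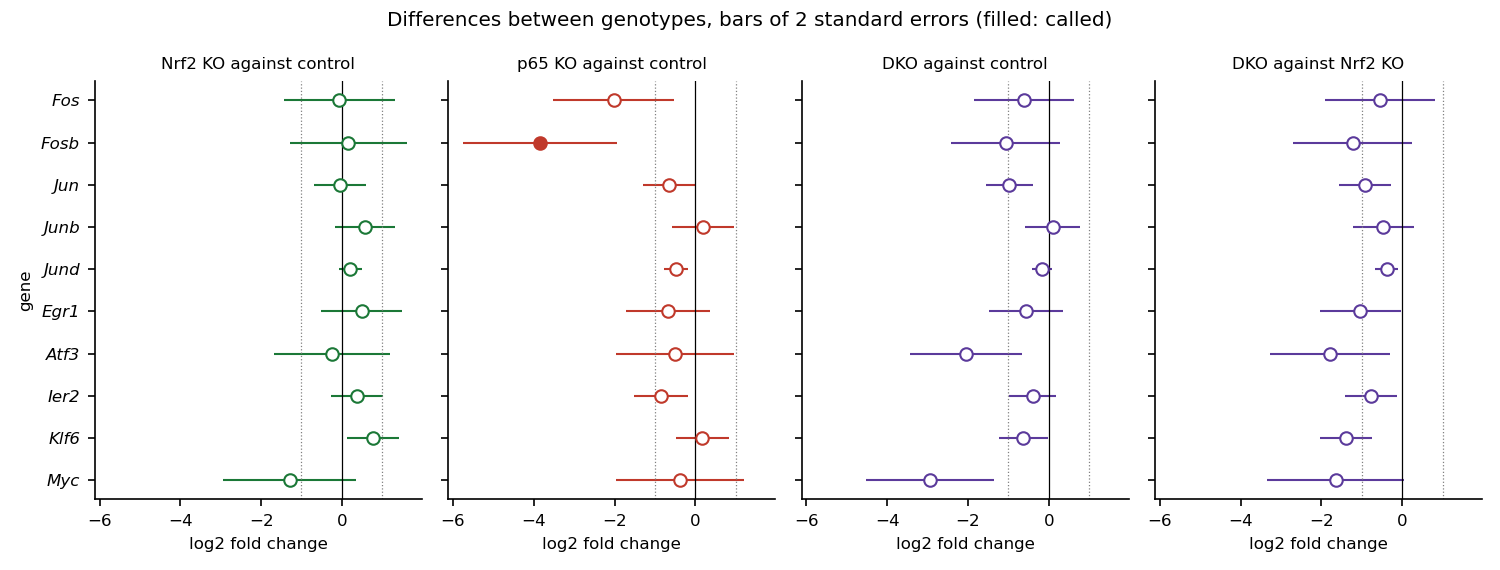
Log2 fold changes of the 10 genes in 4 comparisons, with bars of 2 standard errors from edgeR and dotted lines at 1 and -1. The only filled (called) point is Fosb in p65 KO against control, at -3.85, and all 10 points of DKO against Nrf2 KO lie below 0.

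The comparisons of the set as a whole can be read from counts and medians. In Nrf2 KO, 0 of 10 members were called against control by edgeR (0.550% of all genes), with 1 member, Klf6, at an unadjusted p under 0.05 (9.38% of all genes), and the median log2 fold change of the members was 0.183 against 0.00185 over all genes. In p65 KO the median was -0.568, with 8 of 10 members lower (49.8% of all genes), and over all genes it was 0.000896. Fosb, Fos, Ier2, and Jund, 4 of the 10 members, did not overlap with control and were lower, whereas 23.8% of all genes were lower without overlap. In DKO, 0 of 10 members were called against control by edgeR, where 2.38% of all genes were called, 3 members (Myc, Atf3, and Jun) had an unadjusted p under 0.05 (22.5% of all genes), and DESeq2, which called 3.92% of all genes, called Myc. The median was -0.622, against 0.0246 over all genes, and 9 of 10 members were lower (47.3% of all genes). Myc and Jun, 2 of 10 members, were lower without overlap, beside 13.2% of all genes. These comparisons share the control libraries.

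DKO and Nrf2 KO, which differ in the floxed p65 alleles, showed the most uniform direction. All 10 members had a lower mean in DKO, where 48.8% of all genes were lower, and 9 of the 10, all but Myc, were lower without overlap, where 16.4% of all genes were. Members also moved together within single mice, as described below, so these are not 10 independent observations. The median log2 fold change was -0.985, with a range from -1.79 (Atf3) to -0.38 (Jund), against 0.00787 over all genes. None was called by edgeR (0.433% of all genes were called), 5 members (Klf6, Atf3, Jun, Ier2, and Jund) had an unadjusted p under 0.05 (14.4% of all genes), and DESeq2, which called 2.17% of all genes, called Klf6. Leaving out a library cannot create overlap, so the count of 9 could only stay or rise. It was 9 or 10 when any 1 library was left out, beside 23.2 to 27.2% of all genes. DKO and p65 KO, by contrast, had a median of 0.0166, with 5 members lower (49.9% of all genes), and 0 called by edgeR (1.78% of all genes were called). Of the 3 members at an unadjusted p under 0.05 (22.5% of all genes), Klf6 and Myc were lower and Fosb was higher in DKO. DKO against control, DKO against Nrf2 KO, and DKO against p65 KO share the DKO libraries, so their values are not independent. Ordered by mean, Nrf2 KO held the highest level of 6 members and control that of 4, whereas p65 KO held the lowest level of 5, DKO that of 4, and control that of 1. No neighbouring genotypes in these orders differed at an adjusted p of 0.05 in any member.

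The members varied between mice of the same genotype far more than most genes. The SD between replicates on the log2 scale, pooled over the 4 genotypes, had a median of 0.661 over the members and of 0.178 over the 10185 genes that averaged 50 normalized counts or more. In 9 of the 10 members it was above the 90th percentile of those genes, 0.416. The highest were Fosb (1.37), Myc (1.21), Atf3 (1.12), and Fos (1.05), and the exception was Jund, with 0.162. Over all libraries the highest level was 158.1-fold above the lowest for Fosb, 29.2-fold for Fos, 18.1-fold for Myc, 17.3-fold for Atf3, 8.54-fold for Egr1, and 1.99-fold for Jund. The standard errors followed, with a median of 0.449 for the members and 0.164 for those genes in p65 KO against control.

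**Figure D3:**
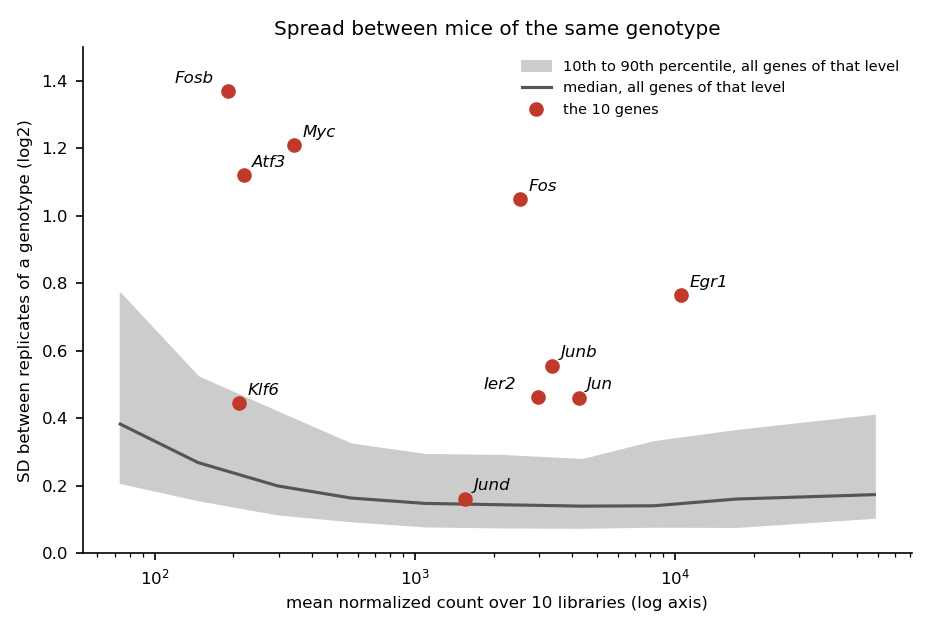
SD between replicates of a genotype (log2 scale, pooled over the genotypes) against the mean normalized count (log axis) of the 10 genes, with the median and the 10th to 90th percentile of all genes at that level. All but Jund and Klf6 lie above the grey band, with Fosb at 1.37 and Jund at 0.162.

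Part of this spread ran through single mice. In p65 KO replicate 2 all 10 members were lower than in p65 KO replicate 1, with a median log2 difference of -1.58, and 7 were at least 2-fold lower, whereas 45.4% of all genes were lower and 1.2% at least 2-fold lower. Of 26 other immediate early genes at that level, 21 were lower in that mouse and 6 at least 2-fold lower. The totals of both libraries were alike, at 33707165 and 36267805 counts. Among the control mice, replicate 3 had 8 members lower than replicate 1, 5 of them at least 2-fold lower (1.27% of all genes), and among the DKO mice replicate 2 had 9 members higher than replicate 1. Relative to each gene's mean over the libraries, the mean of the 10 members was -1.40 in p65 KO replicate 2 and 0.223 in p65 KO replicate 1 on the log2 scale. It was 0.87, 0.523, and -0.17 in control, 0.641 and 0.535 in Nrf2 KO, and -0.765, -0.145, and -0.313 in DKO. Nrf2 KO was thus above DKO in every library, whereas control replicate 3 lay within the range of DKO, and the 2 p65 KO mice fell on either side of that range. According to the paper, injection and sacrifice took place in the morning for every mouse. The exact time and handling of each isolation are not in the labels, and their part in these differences was not tested.

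**Figure D4:**
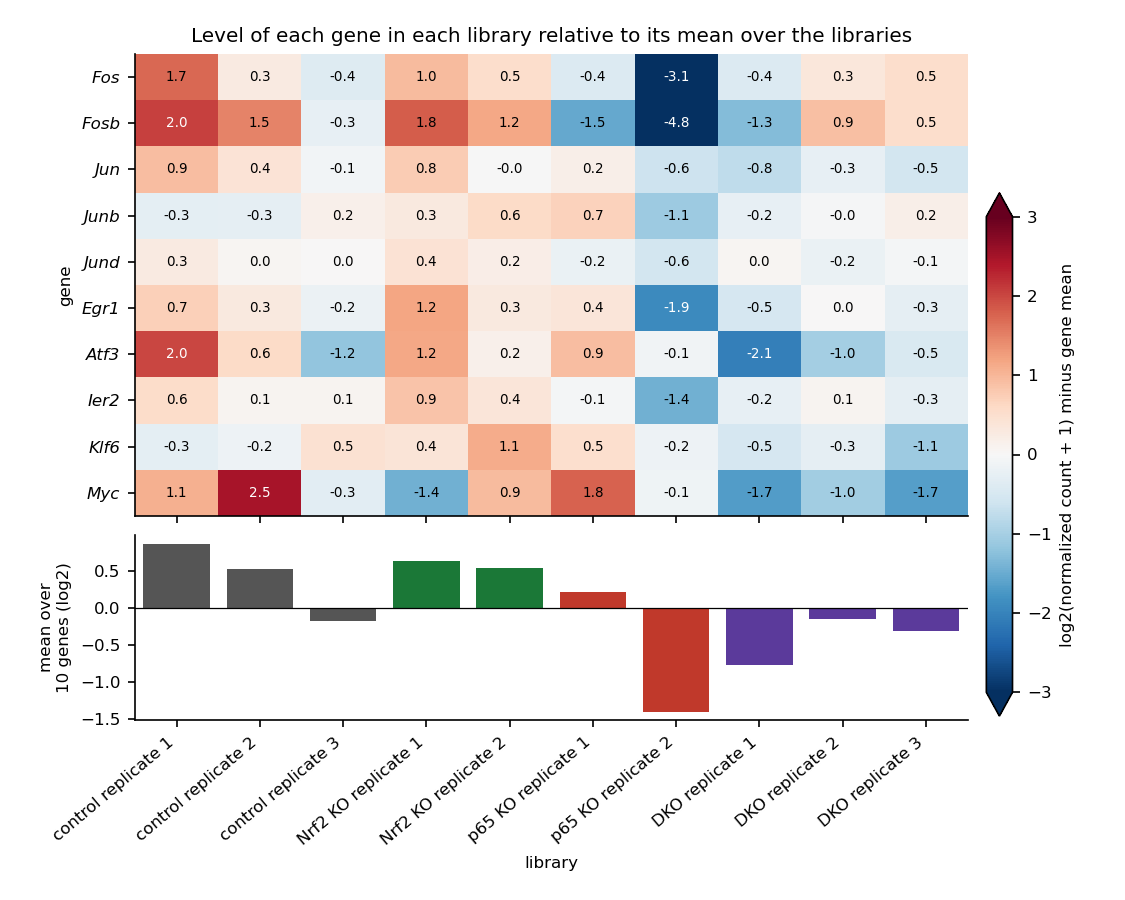
Log2(normalized count + 1) of the 10 genes minus the mean of each gene over the 10 libraries, with the mean over the genes per library in the lower panel. The p65 KO replicate 2 column is below 0 for all 10 genes, with a mean of -1.40, while p65 KO replicate 1 has a mean of 0.223.

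The genes whose profiles over the 10 libraries were most like those of the members were in part members and other immediate early genes. Likeness was measured as the root mean square difference of centred log2 values among 10185 genes, as a description over libraries that share genotypes. For Fos, the closest were Nr4a1, an orphan nuclear receptor and immediate early gene (0.458), Igfbp1, a secreted insulin-like growth factor binding protein (0.476), and Egr1 (0.634). The closest to Fosb were Fos (0.895), Igfbp1 (0.899), and Plekhb2 (1.08), and the closest to Egr1 were Ier2 (0.269), the antiproliferative gene Btg2 (0.36), and Irf2bp2 (0.408). Jun was closest to Actg1, Skil, and Adra1a (0.216 to 0.271), Ier2 to Irf2bp2, Mitf, and Atoh8 (0.253 to 0.266), and Myc to Rgs3 (0.489), Phlda1, and Cish. For Atf3 they were Id3, Zfp36l1, and Ifit3b, for Junb Mcc, Flvcr2, and Dnal4, for Jund Itsn1, Shf, and Rin3, and for Klf6 Casp6, Fam43a, and Alg6.

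Related genes were followed to place the members. Among 37 tested other immediate early genes, 1 was called higher and 0 lower in Nrf2 KO, 3 higher and 2 lower in p65 KO, and 2 higher and 1 lower in DKO, with medians of -0.0307, 0.208, and -0.24. The shares of all genes called in these comparisons were 0.550%, 6.59%, and 2.38%, and those at an unadjusted p under 0.05 were 9.38%, 31.6%, and 22.5%. The gene called in Nrf2 KO was Sgk1, a kinase induced by serum and glucocorticoids (log2 fold change 1.9, SE 0.293, adjusted p = 0.0172 with edgeR), which was also higher in DKO (2.45). In p65 KO the cytokine signalling inhibitor Socs3 (3.16), the clock gene Per1 (2.36), and Klf10 (1.9) were higher and Nfil3, a leucine zipper repressor, was lower (-1.88), and Btg1 was the other gene called lower. Socs3 was at 3963 and 807.2 in p65 KO and at 212.0 to 352.0 in control, so that both p65 KO libraries were above control although Fos and Fosb were below it. Nrf2 KO had Socs3 at 84 and 919.0, so that 1 of its libraries lay above the lower p65 KO library. In DKO the other called genes were Per1 (2.00) and, lower, Gadd45a (-1.18), a DNA damage response gene. The 9 tested AP-1 partners, which encode further leucine zipper proteins, had 0 called in all 3 comparisons with control by edgeR, with 1, 4, and 0 at an unadjusted p under 0.05, and the heat shock genes, 16 tested, likewise had 0 called, with 5, 7, and 5. The partners of lowest p were Mafg (-0.46) and Fosl2 (-0.55) in Nrf2 KO, Atf2 (0.36, adjusted p = 0.0553) and Batf2 in p65 KO, and Mafg (-0.30) and Maff (-0.64) in DKO. Among the heat shock genes, Hspb8 (0.62, adjusted p = 0.019) and Hspa4l (-0.89, adjusted p = 0.0307) passed the adjusted p but not the fold change in p65 KO, and the chaperone gene Hsp90aa1 was at -0.94 in Nrf2 KO (adjusted p = 0.167) and -0.69 in DKO (adjusted p = 0.0888).

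Genes upstream and downstream of the members are given by list, beside the shares of all genes called given above. Of 16 upstream kinases and serum response factors, only Crem, which encodes a CRE-binding modulator, was called, in p65 KO (log2 fold change -1.25, SE 0.237, adjusted p = 0.00851). It was at 1054, 767.0, and 1212 normalized counts in control and at 334.2 and 517.9 in p65 KO. In the integrated stress response list of 10 genes, Fgf21, a hormone secreted under metabolic stress, was lower in Nrf2 KO (-1.58, adjusted p = 0.0411) and DKO (-3.85, adjusted p = 0.000117), and the asparagine synthetase gene Asns was higher in p65 KO (2.06, adjusted p = 0.0381). The Myc network list of 11 genes had 1 called gene, Mnt, which encodes a repressor that pairs with Max (1.18 in p65 KO). A list of 15 Myc targets, from ribosome biogenesis and other processes, also had 1, Ppat, in p65 KO (1.02). The median of these Myc targets was 0.415 in p65 KO, against -0.0377 in Nrf2 KO and 0.0763 in DKO, where Myc was lowest. In p65 KO 5 of the 15 passed the adjusted p alone, beside 14.9% of all genes, and 9 had an unadjusted p under 0.05.

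AP-1 targets were higher, not lower, where Fos and Fosb were lowest. Of 14 tested AP-1 targets, 8 were called higher and 0 lower in p65 KO, beside 5.05% of all genes called higher. The median log2 fold change of the 14 was 2.72. Some of the 14 were near the floor, with Plaur, Timp1, and Mmp12 at 0 in every control library. With a filter of a mean of 10 counts per library the count called was 6, beside 7.13% of all genes called in either direction (627 of 11646 called higher). Without p65 KO replicate 1 the count was 3, and without any 1 control library it was 5. The fits without a control library called 3.66 to 5.52% of all genes in p65 KO. In DKO 3 were called higher, beside 1.36% of all genes, with a median of 1.36 (1 without control replicate 1, control replicate 2, or DKO replicate 2). In Nrf2 KO 0 were called by edgeR, also at an unadjusted p under 0.05, with a median of 0.403. Among the called targets that averaged 50 normalized counts or more, the largest changes in p65 KO were those of the metallothionein genes Mt2 (3.03, SE 0.466, adjusted p = 0.00345) and Mt1 (2.23), the siderophore-binding protein gene Lcn2 (2.67), and Ccnd1, which encodes cyclin D1 (2.02, adjusted p = 0.0224). Mt2 was at 23.2, 40.3, and 105.5 in control and at 377.9 and 554.8 in p65 KO, and Ccnd1 at 1213, 759.2, and 633.2 and at 3639 and 3390. Summed over the list, AP-1 targets were at 1235 to 1635 normalized counts in control, 1913 to 2261 in Nrf2 KO, 6176 to 6307 in p65 KO, and 2407 to 4011 in DKO. The list is not specific to AP-1, since Lcn2 and Ccnd1 are also known to respond to NF-κB or growth signals, and metallothioneins to metals and glucocorticoids.

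Markers of some other liver cells moved with these comparisons. The 12 Kupffer cell markers, of the resident liver macrophages, summed to 378.8 to 956.8 normalized counts in control, 263.5 to 814.6 in Nrf2 KO, 4470 to 6083 in p65 KO, and 1661 to 2924 in DKO. All 12 were called higher in p65 KO and 5 in DKO, beside 5.05% and 1.36% of all genes called higher. Sinusoidal endothelial markers rose from 1010 to 2137 in control to 5356 to 7253 in p65 KO (12 of 12 called) and were at 2702 to 4103 in DKO (2 of 12). Stellate cell markers were at 301.5 to 558.5 in control, 2918 to 3081 in p65 KO (10 of 12 called), and 545.9 to 1450 in DKO (1 of 12). Monocyte and dendritic cell markers were at 111.5 to 219.3 in control, 573.7 to 662.4 in p65 KO (3 of 8 tested called), and 292.9 to 439.7 in DKO (1 of 8). T and NK cell, B cell, and erythroid markers had 0 called in p65 KO. Their sums there were 26.4 to 32.1, 56.9 to 75.6, and 3133 to 3516, against 14 to 36.4, 86.1 to 391.4, and 3362 to 4675 in control. In DKO 1 of 6 tested T and NK cell markers was called higher. The Kupffer, endothelial, stellate, and monocyte values were higher in p65 KO, as were the AP-1 targets, Socs3, and Klf10. There 8 of 10 members had a lower mean than in control (49.8% of all genes). Between the 2 p65 KO mice, however, replicate 1 had the higher sums of these marker lists and the higher level of all 10 members. The part of these cells in the levels of the targets or the members was not tested. In such bulk libraries fewer cells of a type and less RNA per cell cannot be told apart.

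**Figure D5:**
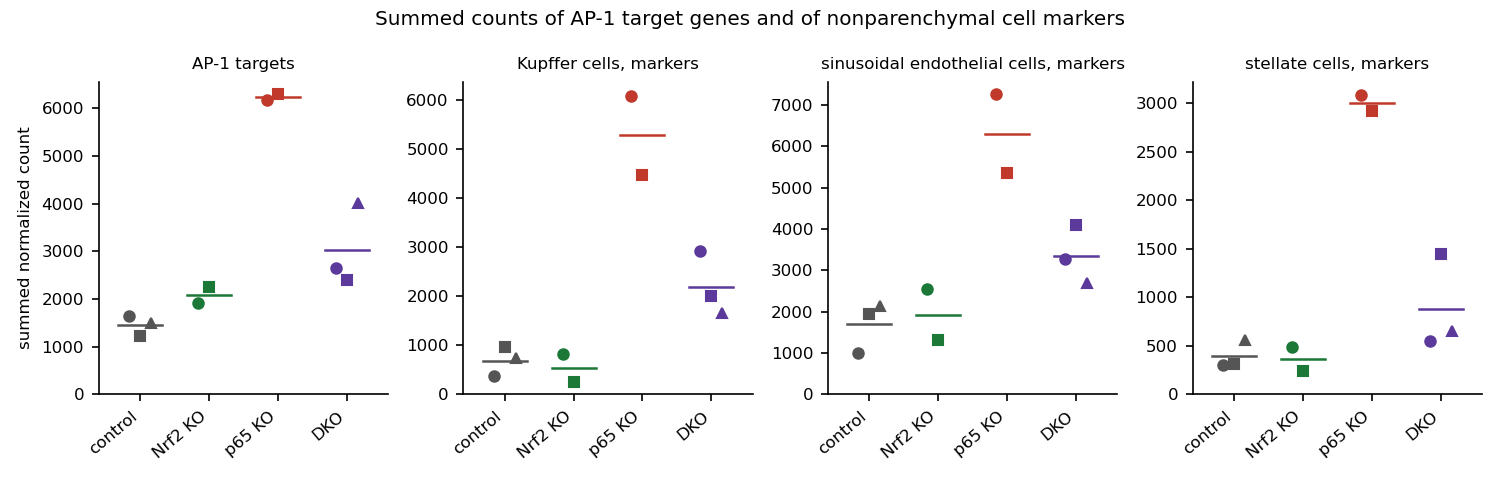
Summed normalized counts per library of the AP-1 target list and of marker lists of Kupffer, sinusoidal endothelial, and stellate cells, with a line at the genotype mean and 1 symbol per replicate. The 2 p65 KO libraries are the highest in all 4 panels, with AP-1 targets at 6176 and 6307, and the DKO libraries lie between them and control except in the stellate cell panel, where DKO replicate 1 (545.9) is below control replicate 3 (558.5).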

How the data were processed

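RNA from freshly isolated hepatocytes was sequenced from poly(A) libraries with a stranded kit, per the labels. The authors ran Salmon 1.10.3 on GRCm39 with GENCODE M33 and deposited whole-number estimated counts, 1 per gene and library. Although the table carries the name normalized, library totals differ (33707165 to 49897382, median 37043490.5), so the values were used as estimated counts. Replicate numbers were not treated as pairs in the main model. The precision of a level is limited by the number of mice and, for Fosb in p65 KO replicate 2, by its few counts.

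Counts were tested with edgeR 4.0.16 (quasi-likelihood test) in R 4.3.3 with TMM scaling, a minimum of 10 counts in the sum of 10 libraries (13641 genes), 1 model for the 4 genotypes, and Benjamini-Hochberg adjustment per comparison. The comparisons were the 6 pairs of genotypes, the interaction, and any difference among genotypes. Standard errors were derived from the F statistic. The test was checked on simulated data. Alternatives were DESeq2 1.42.0, limma 3.58.1 on log2 values with a pseudocount of 1, other scalings and filters, the replicate block, a fit of only the compared genotypes, and a fit without each library. The members and all gene lists were chosen with earlier results of these data known. Named were the members, the targeted genes, up to 4 called genes per list that averaged 50 normalized counts or more in each comparison with control, or the 2 of lowest p where none was called, and the 3 genes most alike to each member. Btg1 was named after its values were seen. Gene names and canonical starts came from GENCODE M39 on GRCm39, which named 21926 of 21939 identifiers. Figures were drawn with matplotlib 3.10.9.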

Additional observations from a re-analysis of the deposited data

How the results depend on the processing

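Only Fosb was called in p65 KO against control and against Nrf2 KO, and both calls held under all 9 other settings that kept every library (adjusted p 0.00498 to 0.0407 and 0.0101 to 0.0486). When 1 control or DKO library was left out, p65 KO against control had 0 called without control replicate 1 (3.66% of all genes). It otherwise had 1, Fosb (4.97 to 7.03%), as did p65 KO against Nrf2 KO throughout (4.81 to 5.67%). Without 1 p65 KO library, 1 mouse was left in that genotype. The log2 fold change of Fosb against control was then -6.57 without replicate 1 and -2.94 without replicate 2. The Fosb calls rested on few libraries, as described above. Against Nrf2 KO, 2 members, Fosb and Ier2, were called without a filter, with DESeq2, with limma on log2 values (4.89%, 7.03%, and 6.05% of all genes), and with the replicate block (546 of 13641 genes). The deviations of 13 same-numbered pairs correlated at -0.232 to 0.113, and those of 24 other pairs at -0.17 to 0.232. With 2 libraries in a genotype the deviations mirror each other, so these values cannot show whether libraries shared an isolation day. The replicate block moved no other count of called members. In DKO against control, 1 member, Myc, was called with total count scaling, without a filter, with DESeq2, and with only the genotypes compared (2.42%, 2.54%, 3.92%, and 1.64% of all genes). When 1 control or DKO library was left out, 0 to 2 were called there (1.08 to 2.33% of all genes). In DKO against Nrf2 KO, 1 member, Klf6, was called without a filter and with DESeq2 (0.716% and 2.17% of all genes). In the test for any difference among genotypes, 0 members were called with DESeq2 size factors, upper quartile scaling, or a mean of 10 counts per library, 4 without a filter (13.7% of all genes), 4 with DESeq2 (24.5%), 2 with limma (14.4%), and 0 to 3 when 1 library was left out (5.11 to 13.8%), never Jund. Total count scaling called Klf6 in its place. Over genes that averaged 50 or more, total count scaling shifted the median change (log2) from -0.0562 to 0.121 in p65 KO against control, and the member values move with it. It changed the split of called genes from 186 higher and 139 lower to 153 and 177 in DKO against control, from 111 and 132 to 86 and 418 in DKO against p65 KO, from 527 and 181 to 672 and 110 in p65 KO against Nrf2 KO, and from 36 and 26 to 27 and 91 in the interaction.

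Single members were followed under the other settings where a pairwise or interaction change exceeded its standard error. Every member was also followed in the test for any difference among genotypes, which gives an adjusted p but no direction. Of these 1124 values, 1064 kept the side of the threshold and, where there was one, the direction. The call was lost in 21, all of them Jund in the test for any difference or Fosb in p65 KO against control or Nrf2 KO. It was gained in 32. The other 7 turned direction, all when 1 library was left out. These were Egr1 in p65 KO against control (-2.23 to 0.05), Myc in DKO against Nrf2 KO (-2.38 to 0.01), Jun (-0.69 to 0.13) and Ier2 (-0.07 to 1.29) in DKO against p65 KO, Myc in p65 KO against Nrf2 KO (-0.34 to 2.56), and Junb (-1.29 to 0.50) and Myc (-2.23 to 0.40) in the interaction. The counts of members lower without overlap when 1 library was left out were added after seeing the data and reached 7 in DKO against control without control replicate 3 (17.6% of all genes) and 7 in p65 KO against control without p65 KO replicate 1 (32.1%). Leaving out a library can only keep or raise such a count. With 2 or 3 mice per genotype and the spread of these genes, differences near 2-fold in Fos, Fosb, Atf3, or Myc could not be resolved.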
